A study of Mus musculus with 20 samples.

Results

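The angiopoietin and Tie receptor system was examined through 5 genes, the ligands *Angpt1* and *Angpt2*, the receptors *Tek* (Tie2) and *Tie1*, and the receptor phosphatase *Ptprb*, taken by gene name from the 55866 genes of the count table. Angiopoietins are secreted ligands of Tie2. ANGPT1, made mainly by cells around vessels, activates the receptor and keeps endothelium quiescent, whereas ANGPT2, made by endothelial cells that are being remodeled, often opposes it. TIE1, the related receptor, modulates Tie2, and PTPRB (VE-PTP) is an endothelial phosphatase that removes phosphate from Tie2.

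The counts came from RiboTagEC mice (Rpl22HA/HA x Cdh5CreERT2, strain C57BL/6J), in which a hemagglutinin (HA) tag is placed on a ribosomal protein where Cdh5-driven Cre has been active, so that immunoprecipitation (IP) of HA recovers ribosome-bound mRNA mainly of endothelial cells. All mice were females that had received 75 mg/kg tamoxifen for 5 days from 3 weeks of age and carried Py8119 mammary tumors, implanted in the mammary fat pad at 8 weeks. One group received 25 mg/kg of the Notch4-blocking antibody 6-3-A6 and the other control mouse IgG, twice-weekly dosing running for 10 days. Each of 5 tumors per group gave 1 library of the homogenate (input) and 1 of the IP eluate, in all 20 libraries of 11881214 to 26728205 counts. No library lacked the Cre driver or the tag, so nonspecific binding to the beads was not measured. The study itself compared 3 IP libraries per group, control IgG 2, 4 and 5 against 6-3-A6 1, 3 and 4.

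The IP fraction carried its labelled cell type. Against input, the IP libraries were higher for all 15 of 15 tested endothelial markers, by a median of 4.52 on the log2 scale, where edgeR called 19.7% of all tested genes higher. Of the other markers 7 of 11 tested macrophage, 3 of 9 fibroblast, 2 of 6 epithelial and 3 of 4 lymphoid markers were lower, beside 21.1% of all tested genes, and 0 of 2 erythroid markers were called. Of 8 mural markers, *Kcnj8* and *Abcc9* were higher and *Des* was lower. The mean log2 CPM (counts scaled to library size) of the endothelial markers with counts ran from 5.79 to 8.00 in control IgG IP and from 5.69 to 7.84 in 6-3-A6 IP. The lowest IP library of each group was control IgG 4 and 6-3-A6 2, whose inputs were at 2.76 and 2.90. The first was the lowest input of its group, and the second was the lowest of its group apart from 6-3-A6 input 4, at 1.75. The 10 input libraries ran from 1.75 to 3.31. For any level in bulk material, fewer cells of a type and less RNA per cell cannot be told apart.

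The 250 bases upstream of the RefSeq start of both receptor genes are shown because the pair moved together across the IP libraries, as described further on. Of the 5 genes, 2 were matched in the RefSeq promoter table, build GRCm38.p6, at chr4:94739039-94739288 on the plus strand for *Tek* and at chr4:118489850-118490099 on the minus strand for *Tie1*. Capitals mark GGAA or its complement TTCC, the core letters of ETS family sites.
Tek: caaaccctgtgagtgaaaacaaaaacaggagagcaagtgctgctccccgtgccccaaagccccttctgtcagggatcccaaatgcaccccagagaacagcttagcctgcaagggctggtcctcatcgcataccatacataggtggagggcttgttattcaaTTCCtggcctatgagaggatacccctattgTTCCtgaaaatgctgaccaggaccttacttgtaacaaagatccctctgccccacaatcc
Tie1: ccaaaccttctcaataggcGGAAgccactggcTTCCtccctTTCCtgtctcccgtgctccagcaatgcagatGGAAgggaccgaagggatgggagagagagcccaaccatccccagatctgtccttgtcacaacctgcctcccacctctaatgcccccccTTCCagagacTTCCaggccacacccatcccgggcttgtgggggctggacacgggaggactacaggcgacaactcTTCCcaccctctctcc
The *Tie1* window held 7 such matches on both strands together, a number reached by 3.82% of 32851 mouse promoters of the same length, and the *Tek* window held 2, reached by 76.8%. At least 1 GGAA was present in 93.4% of all windows. The heptamer GTGGGAA or its complement TTCCCAC, the core of sites read by the Notch effector RBPJ, which contains GGAA, occurred 1 time in the *Tie1* window, starting at position -16, and 0 times in that of *Tek*, and 5.42% of promoters held it. GATA or TATC occurred 1 time in the *Tek* window and 0 times in the *Tie1* window, and 53.6% of promoters held it. These matches describe letters in a window and not bound sites.

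*Angpt2* could not be measured. It was listed at 0 counts in all 20 libraries, which for counting error alone would allow up to 3 counts per library. The gene lies at positions 18740279 to 18791578 of chromosome 8 on the minus strand (count table coordinates, GRCm39), wholly inside *Mcph1*, which runs from 18645147 to 18853205 on the plus strand and had 12265 counts. All 12587 genes of the table that lie wholly within another gene were at 0, compared with 11735 of 30493 genes (38.5%) that overlap no other gene. The zero therefore carries no information on *Angpt2* expression, and reads of *Angpt2* cannot be told apart from those of *Mcph1* in it. *Mcph1*, a gene of chromosome condensation, was near-equal in both fractions, with a log2 fold change of -0.05 ± 0.11 (SE).

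The other 4 genes were measured over nearly their whole length. *Tek* (chromosome 4, 94627526 to 94763213, plus strand) and *Tie1* (chromosome 4, 118328388 to 118347258, minus strand) overlap no other gene of the table. *Angpt1* (chromosome 15, 42288119 to 42540373, minus strand) shares 737 bases, 0.292% of its span, with *Gm17473* on the other strand. *Ptprb* (chromosome 10, 116111428 to 116225440, plus strand) contains the small genes *Gm47625* and *Gm26495*, both at 0 counts. The length listed for each of these genes was its whole span, from which reads were taken to be counted over whole gene spans, introns included.

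*Angpt1*, the agonist ligand, was not enriched in the endothelial fraction. In control IgG input its level was 11.3, 6.95, 20.8, 15.9 and 15.2 CPM in tumors 1 to 5, and in control IgG IP 7.58, 14.3, 13.6, 14.7 and 11.8 CPM. In 6-3-A6 input it was 18.3, 20.7, 8.87, 19.4 and 9.44 CPM, and in 6-3-A6 IP 10.8, 14.9, 9.14, 3.83 and 12.1 CPM. The fractions overlapped in both treatment groups, and the lowest of all 20 values was that of 6-3-A6 IP 4. *Angpt1* was 1.38-fold lower in IP than in input, a log2 fold change of -0.46 ± 0.24 (SE, 10 against 10 libraries) that was not called by edgeR (adjusted p = 0.124). The 95% interval of this difference was -0.95 to 0.03.

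*Tek*, which encodes the angiopoietin receptor Tie2, rose 15.5-fold in IP. Its input level was 4.58, 5.80, 3.92, 3.57 and 2.71 CPM in control IgG tumors and 4.17, 3.65, 2.06, 9.20 and 5.53 CPM in 6-3-A6 tumors. Its IP level was 133, 90.4, 83.6, 28.2 and 48.8 CPM in control IgG tumors and 84.9, 16.5, 61.4, 111 and 82.1 CPM in 6-3-A6 tumors. Every IP value lay above every input value, and the lowest IP value of each group was in the library lowest in endothelial markers. The log2 fold change was 3.95 ± 0.35 (SE, edgeR adjusted p = 9.09e-09).

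*Tie1*, the companion receptor, rose 25.2-fold in IP, the largest value among the 4 genes with counts. Input levels were 8.29, 9.65, 5.42, 6.33 and 6.44 CPM under control IgG and 9.35, 4.47, 3.90, 1.82 and 8.14 CPM under 6-3-A6. IP levels were 331, 213, 210, 50.2 and 83.3 CPM under control IgG and 204, 29.0, 145, 222 and 195 CPM under 6-3-A6. IP and input did not overlap, and here too control IgG 4 and 6-3-A6 2 were lowest among the IP libraries of their group. The log2 fold change was 4.66 ± 0.39 (SE, edgeR adjusted p = 3.60e-09).

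*Ptprb*, the Tie2 phosphatase, rose 10.0-fold in IP. Input levels were 9.04, 9.32, 14.7, 10.9 and 12.8 CPM with control IgG and 15.5, 11.8, 10.8, 11.4 and 8.52 CPM with 6-3-A6. IP levels were 140, 129, 219, 44.9 and 97.0 CPM with control IgG and 191, 34.8, 138, 115 and 105 CPM with 6-3-A6. The lowest IP value was more than any input value, again in the 6-3-A6 2 library. The log2 fold change was 3.33 ± 0.27 (SE, edgeR adjusted p = 2.31e-09).

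**Figure D1:**
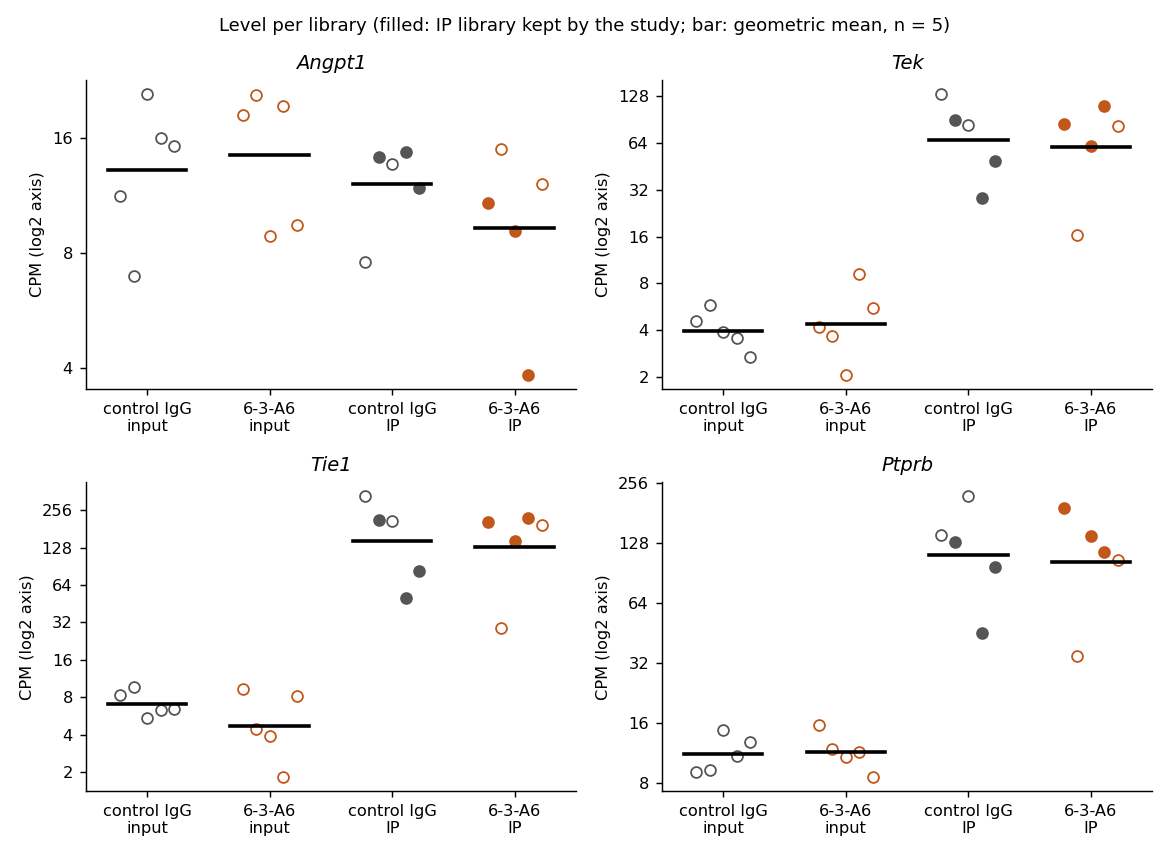
Level of *Angpt1*, *Tek*, *Tie1* and *Ptprb* in each library, in CPM on a log2 axis, by treatment and fraction; filled points are the IP libraries kept by the study and bars are geometric means of 5 libraries. *Tek*, *Tie1* and *Ptprb* separate IP from input in every library, from 16.5, 29.0 and 34.8 CPM upward in IP, whereas *Angpt1* overlaps between fractions.

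Thus 3 of the 4 tested genes were higher in IP, where 19.7% of 14095 tested genes were called higher, 21.1% lower and 40.8% in either direction, and these 3 did not overlap between fractions, as held with higher IP values for 5.12% of tested genes. The median log2 fold change of the 4 genes was 3.64, beside -0.06 over all tested genes. For comparison, the log2 fold change was 3.89 for *Notch4*, the target of 6-3-A6, 4.12 for *Pecam1* and 4.36 for *Cdh5*. Enrichment was present within each treatment group, with log2 fold changes under control IgG and 6-3-A6 of 4.16 and 3.76 for *Tek*, 4.55 and 4.78 for *Tie1*, and 3.41 and 3.26 for *Ptprb*. For *Angpt1* they were -0.24 and -0.68, neither of them called.

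Levels were compared between genes per kilobase of exon (GENCODE vM21). In control IgG IP, *Tie1* was highest at 36.1 ± 23.0 CPM per kb (SD, n = 5), followed by *Tek* at 16.3 ± 8.55, *Ptprb* at 9.46 ± 4.80 and *Angpt1* at 2.38 ± 0.559. In 6-3-A6 IP the order was the same, at 32.3 ± 15.9, 15.1 ± 7.51, 8.77 ± 4.25 and 1.95 ± 0.793 CPM per kb. Within a library, *Tie1* was above *Tek* and *Tek* above *Ptprb* in 5 of 5 IP libraries of each group, and *Ptprb* was above *Angpt1* in 5 of 5 control IgG and 4 of 5 6-3-A6 IP libraries. Per kilobase of gene span *Ptprb* (1.11) exceeded *Tek* (0.565) in control IgG IP, and *Tek* was above *Ptprb* in 0 of 5 IP libraries of each group. In input the order depended on the length used. Per kb of exon *Angpt1* was highest, at 2.696 ± 1.00 CPM per kb under control IgG and 2.95 ± 1.10 under 6-3-A6, whereas per kb of gene span *Tie1* was above *Angpt1* in 5 of 5 input libraries of each group, with 0.293 against 0.0608 CPM per kb under 6-3-A6. Per kb of exon *Tek* was at 0.873 ± 0.246 and *Ptprb* at 0.852 ± 0.181 in control IgG input, values that differed by less than their spread. On that scale *Tek* was above *Ptprb* in 2 of 5 input libraries of each group. On the span scale *Tek* was above *Ptprb* in 0 of 5, with 0.0303 ± 0.0086 against 0.0996 ± 0.0212 CPM per kb in control IgG input.

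The IP over input ratio was then taken within each tumor. For *Tek* it was 28.3, 15.3, 20.8, 7.70 and 17.4 in control IgG tumors and 19.9, 4.41, 28.3, 12.0 and 14.6 in 6-3-A6 tumors. For *Tie1* it was 39.5, 21.8, 38.0, 7.82 and 12.7 under control IgG and 21.5, 6.35, 36.0, 115 and 23.6 under 6-3-A6. The ratio of 115 belonged to 6-3-A6 tumor 4, whose input held only 20 *Tie1* counts. For *Ptprb* the ratios were 15.3, 13.7, 14.8, 4.10 and 7.51, against 12.2, 2.94, 12.6, 10.1 and 12.2. The receptors and the phosphatase were above input in 5 of 5 tumors of each group, and the groups overlapped. *Angpt1* was below input in 4 of 5 control IgG and 3 of 5 6-3-A6 tumors. The mean log2 ratio differed between 6-3-A6 and control IgG by -0.29 for *Tek*, 0.41 for *Tie1*, -0.16 for *Ptprb* and -0.50 for *Angpt1*. Two-sided exact permutation tests over 5 against 5 tumors gave p = 0.603, 0.667, 0.714 and 0.437, each 0.714 after adjustment over the 4 genes, where the smallest possible p was 0.00794.

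**Figure D2:**
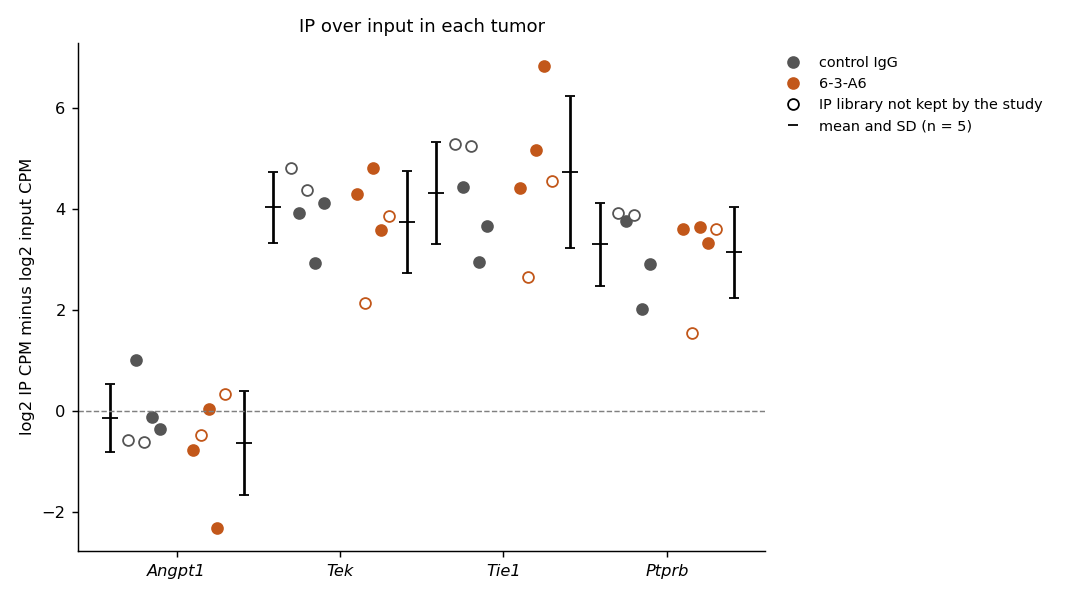
Difference between IP and input log2 CPM in each of 10 tumors for the 4 genes with counts; points are tumors, filled where the study kept the IP library, and bars give the mean and SD of 5 tumors. All points of *Tek*, *Tie1* and *Ptprb* lie above 0, the lowest at 1.55 for *Ptprb* in 6-3-A6 tumor 2, and those of *Angpt1* scatter around 0.

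Treatment was compared first over all 5 IP libraries per group, to ask whether Notch4 blockade changed the system in endothelium. No difference was called for any of the 4 genes, and 0 of 13602 tested genes (percent called 0) passed edgeR's adjusted threshold, 292 of them having an unadjusted p under the same 0.05. The log2 fold changes, 6-3-A6 against control IgG, were -0.12 (95% interval -1.11 to 0.88) for *Tek*, -0.17 (-1.33 to 0.99) for *Tie1*, -0.11 (-1.03 to 0.81) for *Ptprb* and -0.28 (-0.97 to 0.41) for *Angpt1*. The *Angpt1* value was -0.63 with limma voom (unadjusted p = 0.0234, adjusted p = 0.186) and ran from -0.46 without 6-3-A6 IP 2 to -0.06 without 6-3-A6 IP 4. *Notch4* itself differed by -0.12. Without control IgG 4 and 6-3-A6 2, an alternative chosen after seeing the data, the 4 values were -0.05, -0.12, -0.08 and -0.38.

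The 6 IP libraries kept by the study are a subset of these 10 and gave other signs for *Tek*, *Tie1* and *Ptprb*. There *Tek* was at 90.4, 28.2 and 48.8 CPM in control IgG IP 2, 4 and 5 and at 84.9, 61.4 and 111 CPM in 6-3-A6 IP 1, 3 and 4, and the groups overlapped. The log2 fold change was 0.59 (95% interval -0.21 to 1.39) for *Tek*, 0.69 (-0.25 to 1.63) for *Tie1* and 0.68 (-0.08 to 1.44) for *Ptprb*, with edgeR adjusted p = 0.418, 0.418 and 0.306. *Notch4* differed by 0.78 there (95% interval -0.05 to 1.60), which was not called either (edgeR adjusted p = 0.283). With limma voom the values for *Tek* and *Tie1* were 0.11 and 0.24. *Angpt1* was lower by a log2 fold change of -0.81 (-1.54 to -0.07), with 14.3, 14.7 and 11.8 CPM against 10.8, 9.14 and 3.83 CPM, groups that did not overlap, and it was not called by edgeR with the filter on low counts (unadjusted p = 0.0341, adjusted p = 0.207), though it was without the filter (-0.79, edgeR adjusted p = 0.0423). In this comparison 4.61% of 13999 tested genes were called and 24% did not overlap, so that separate groups were common among all genes there. These differences moved with single libraries. Without control IgG IP 4 they were 0.30 for *Tek*, 0.36 for *Tie1* and 0.39 for *Ptprb*, and without control IgG IP 2 they were 1.15, 1.504 and 1.06, of which *Tie1* alone passed the threshold (edgeR adjusted p = 0.0222). The *Angpt1* difference was -0.47 without 6-3-A6 IP 4 and -1.10 without 6-3-A6 IP 1.

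**Figure D3:**
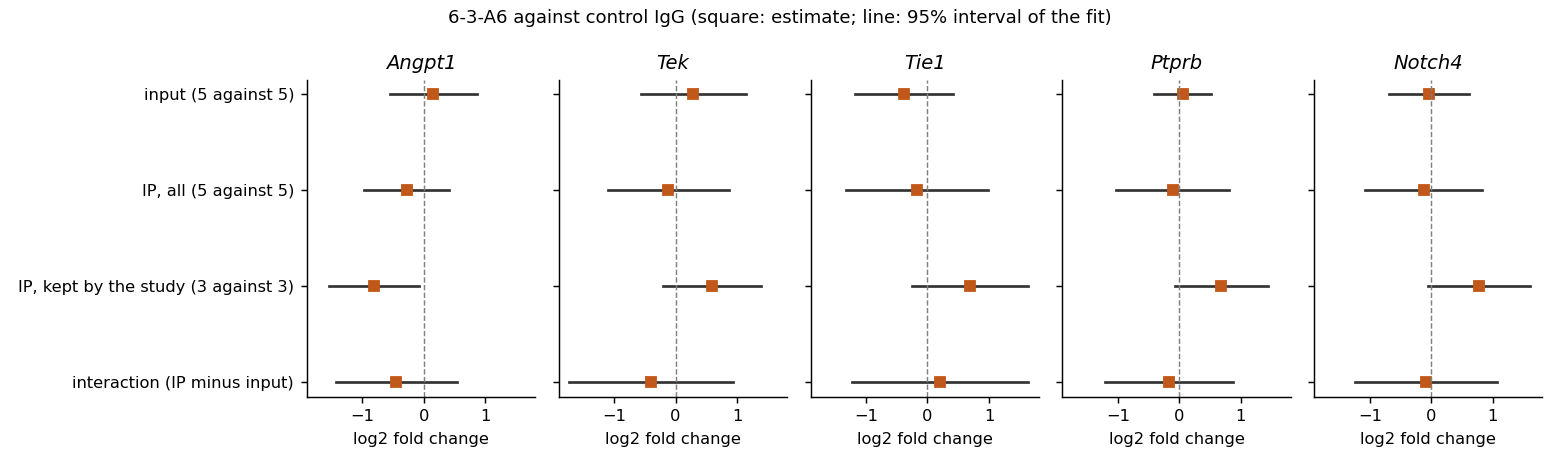
Log2 fold change, 6-3-A6 against control IgG, of the 4 genes and of *Notch4* in input, in all and in the kept IP libraries and for the interaction; squares are estimates and lines are 95% intervals of the edgeR fit. The *Tek*, *Tie1* and *Ptprb* estimates move from -0.12, -0.17 and -0.11 over all IP libraries to 0.59, 0.69 and 0.68 over the kept ones, and every interval for them includes 0.

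Endothelial and other cell markers moved with the same split. In the kept libraries the mean log2 CPM of the endothelial markers was 7.32, 5.79 and 6.54 under control IgG and 7.84, 7.73 and 7.81 under 6-3-A6, without overlap. The control IgG libraries that the study left out, 1 and 3, were the highest of their group, at 7.97 and 8.00. The 6-3-A6 libraries left out, 2 and 5, were the lowest of theirs, at 5.69 and 7.31. Of the 15 tested endothelial markers 6 were called higher with 6-3-A6 over the kept libraries, with a median of 0.96, and 6 of 11 macrophage, 2 of 9 fibroblast and 2 of 6 epithelial markers were called lower. Among mural markers *Kcnj8* was called higher and *Cspg4* lower, and 0 of 4 lymphoid markers were called. Over all 10 libraries 0 of these markers were called. The macrophage markers with counts had mean levels of 7.74 to 8.41 log2 CPM in control IgG IP and of 7.25 to 8.79 in 6-3-A6 IP, and the part of these cells in the results was not tested.

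Each gene was therefore also set against the endothelial markers of its own IP library. *Tek* lay -0.92, -0.82, -1.61, -0.96 and -0.93 from the marker mean in control IgG IP 1 to 5 and -1.43, -1.64, -1.78, -1.01 and -0.95 in 6-3-A6 IP 1 to 5 (log2 scale). *Tie1* lay 0.41, 0.42, -0.28, -0.13 and -0.16 from it under control IgG and -0.17, -0.83, -0.55, -0.02 and 0.30 under 6-3-A6. *Ptprb* lay -0.84, -0.30, -0.22, -0.29 and 0.06 from it under control IgG and -0.26, -0.56, -0.62, -0.96 and -0.59 under 6-3-A6. All group ranges overlapped. The mean differences were -0.31 for *Tek*, -0.30 for *Tie1*, -0.28 for *Ptprb* and -0.53 for *Angpt1*. Exact permutation tests (two-sided, 5 against 5) gave p = 0.159, 0.278, 0.135 and 0.540, and adjusted p = 0.317, 0.370, 0.317 and 0.540.

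**Figure D4:**
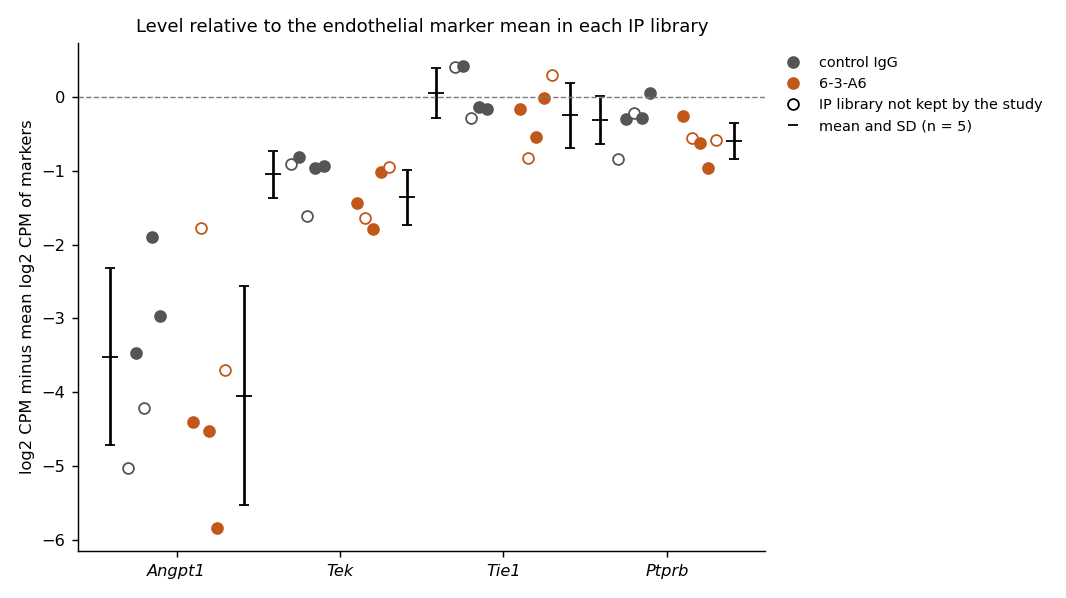
Log2 CPM of each gene minus the mean log2 CPM of the endothelial markers in the same IP library; points are libraries, filled where kept by the study, with the mean and SD of 5 libraries beside them. Control IgG and 6-3-A6 overlap for all 4 genes, and *Angpt1* has the widest range, from -5.83 to -1.77.

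Relative to the markers, the kept libraries gave negative signs as well, with differences of -0.51 for *Tek*, -0.29 for *Tie1*, -0.44 for *Ptprb* and -2.14 for *Angpt1*. With 3 against 3 libraries the exact permutation test cannot go below p = 0.1, the value obtained for *Tek* and *Angpt1* (adjusted p = 0.2). With the marker mean as a covariate in edgeR, the *Tek*, *Tie1* and *Ptprb* differences over the kept libraries turned to -0.64, -0.77 and -0.44, none of them called (adjusted p = 0.956, 0.915 and 0.956). The uncalled increases of the receptors and *Ptprb* over the kept libraries were thus smaller than that of the marker mean, and this gap was not called either. Neither test could decide on it, as the permutation p could not go below 0.1. In the edgeR fit the marker means did not overlap between the groups and could hardly be separated from treatment.

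In input, no gene of the system was called between treatments. The log2 fold changes were 0.29 (95% interval -0.56 to 1.14) for *Tek*, -0.38 (-1.19 to 0.42) for *Tie1*, 0.05 (-0.41 to 0.52) for *Ptprb* and 0.16 (-0.54 to 0.86) for *Angpt1*, and 0 of 13683 genes were called by edgeR, 180 of them having an unadjusted p under 0.05. The *Tek* value rested on 6-3-A6 input 4, which held the highest *Tek* level of all input libraries, 9.20 CPM, together with the lowest *Tie1* level, 1.82 CPM. Without it the *Tek* difference was -0.11. Endothelial markers were also lowest there, at a mean log2 CPM of 1.75 beside 2.76 to 3.31 in the other 9 input libraries. *Tek* exceeded the marker mean by 1.47 in that library and was below it, by -0.56 to -1.99, in the others. No interaction of treatment and fraction was called, with values of -0.40 for *Tek*, 0.21 for *Tie1*, -0.17 for *Ptprb* and -0.44 for *Angpt1*, and 0 of 14488 genes called (125 with an unadjusted p under 0.05).

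Across the 10 IP libraries the receptors followed each other closely, a description of libraries that also differed in endothelial marker level. The Pearson correlation of log2 CPM was 0.991 between *Tek* and *Tie1*, 0.857 between *Tek* and *Ptprb*, and -0.56 between *Tek* and *Angpt1*. Of 13602 genes, those nearest to *Tek* were *Tspan7* (0.996), *Kdr* (0.992), the VEGF receptor 2 gene, and *Tie1*. Nearest to *Tie1* were *Pear1* (0.992), *Tek* and *Tspan7* (0.990), and nearest to *Ptprb* were *Adgrl4* (0.983), *Aplp1* (0.979) and *Adgrf5* (0.974). *Angpt1* was nearest to *Wnt5a* (0.948), *Brinp3* (0.940) and *Fam117a* (0.934). Without 6-3-A6 IP 4, which had the lowest *Angpt1* level, these 3 correlations were 0.815, 0.911 and 0.803. In the 10 input libraries *Tek* and *Tie1* had a correlation of -0.19, a value that rested on 6-3-A6 input 4, with its 20 *Tie1* counts. Without it the correlation over the other 9 input libraries was 0.776, whereas leaving out any 1 IP library, also done after seeing the data, left 0.983 to 0.994. The nearest genes there were *Tmem29*, *Majin* and *D630033A02Rik* for *Tek* (0.918 to 0.944), *Zfp688*, *Slc4a11* and *Pmel* for *Tie1* (0.959 to 0.973), *Slc44a1*, *Tmem106b* and *Zfp36l2* for *Ptprb* (0.941 to 0.963), and *Ghr*, *Bpnt2* and *Ggps1* for *Angpt1* (0.959 to 0.976).

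The genes downstream of Tie2 were spread around the background. Of 17 tested signal transducers 3 were higher and 2 lower in IP, beside 19.7% and 21.1% of all tested genes, with a median of 0.09 beside -0.06 over all genes. The phosphoinositide 3-kinase subunits *Pik3r1* (log2 fold change 0.71) and *Pik3cb* (0.43) and the phosphatase *Ptpn11* (0.39) were higher, and the subunit *Pik3r2* (-0.38) and the kinase *Akt2* (-0.38) were lower. Of 11 tested regulators and targets 4 were higher, where 19.7% of all tested genes were, namely *Nos3*, endothelial nitric oxide synthase (5.09), *Pdgfb*, the ligand that recruits pericytes (2.49), *Foxo1*, the transcription factor restrained by Tie2 and AKT signaling (1.25), and *Klf2*, a flow-responsive factor (0.81). *Pik3r1* rose in both groups, from a mean of 71.7 ± 18.9 to 120 ± 24.8 CPM with control IgG and from 75.1 ± 18.9 to 135 ± 11.5 CPM with 6-3-A6 (SD, n = 5).

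Angiopoietin-like genes, relatives of the ligands that do not bind Tie2, could be read only in part. *Angptl1*, *Angptl2*, *Angptl7* and *Angptl8* were at 0 counts and each lies wholly inside another gene (*Ralgps2*, *Ralgps1*, *Mtor* and *Dock6*), as does *Esm1* of the target list (in *Gzmk*). Of the 2 tested, *Angptl4*, a lipoprotein lipase inhibitor, was higher in IP by 3.03 and *Angptl6* differed by -0.15. Among 2 tested phosphatases related to *Ptprb*, *Ptprj* was lower in IP (-0.74) and *Ptpro* was not called (-0.33), in contrast to the 3.33 of *Ptprb*; the difference between these genes was not tested.

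**Figure D5:**
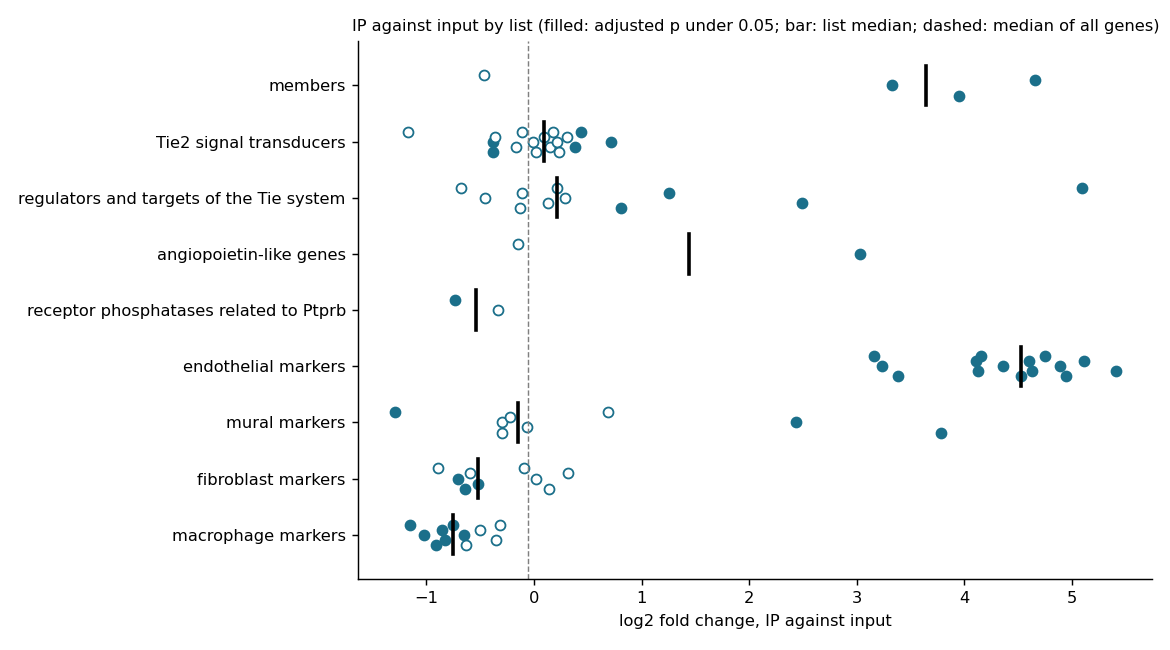
Log2 fold change, IP against input, for each tested gene of the system, of related lists and of cell type markers; filled points have an edgeR adjusted p under 0.05, bars are list medians and the dashed line is the median of all genes, -0.06. *Tek*, *Tie1* and *Ptprb* fall among the endothelial markers (median 4.52), and *Angpt1* is at -0.46.

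In the treatment comparisons, calls among these lists occurred in the kept libraries and nowhere else. *Nos3* was at 10.7, 4.64 and 5.01 CPM under control IgG and 14.0, 21.2 and 17.9 CPM under 6-3-A6, a log2 fold change of 1.34 (edgeR adjusted p = 0.0390). *Klf2* was at 48.3, 37.9 and 39.9 CPM against 59.6, 81.6 and 91.0 CPM (log2 fold change 0.84, edgeR adjusted p = 0.0413), and *Angptl4* at 36.5, 17.2 and 24.1 CPM against 61.2, 75.7 and 57.5 CPM (log2 fold change 1.29, edgeR adjusted p = 0.0255). None of these values overlapped between the groups, as held for 24% of tested genes. In this comparison 4.61% of tested genes were called, and in the same libraries 6 of 15 endothelial markers were called higher, with a median log2 fold change of 0.96. With the endothelial marker mean as covariate, 1 gene of all tested was called, and the log2 fold changes were 0.50 for *Nos3*, 0.60 for *Klf2* and 0.52 for *Angptl4* (edgeR adjusted p = 0.956 for each). The marker means of the kept libraries did not overlap between the groups. This fit could therefore hardly separate treatment from marker level, and the loss of calls does not decide between them. With all 10 IP libraries in the fit, the values were log2 fold changes of 0.11 for *Nos3*, 0.41 for *Klf2* and 0.0085 for *Angptl4*, none of them called, and the groups overlapped, as control IgG 1, not among the kept libraries, had 34.6 CPM of *Nos3*, 92.8 CPM of *Klf2* and 75.0 CPM of *Angptl4*. The 16 tested transducers were not called in either IP treatment comparison.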

How the data were processed

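Input and anti-HA IP RNA of 10 Py8119 tumors was sequenced as 100 bp single reads. The authors aligned reads with STAR 2.7.4a and made counts with featureCounts 2.0.1, without pooling. The labels also name featureCounts 1.5.2, and the feature and strand settings are not given in the sources used here. Counting over whole gene spans was inferred from the gene lengths in the count table. The methods name mm10, whereas the coordinates in the count table are those of GRCm39. A second deposited table holds a signal per library, the raw counts divided by DESeq2 size factors, for the 6 IP libraries that the authors kept after leaving out 2 per group as outliers. Its signal equaled the counts divided by a constant within a relative tolerance of 1e-06 for 100% of genes, and served only to identify those libraries. Its columns of the authors' fold changes and p-values were not used.

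CPM used TMM factors, and log2 CPM a prior count of 2. Counts were tested with edgeR 4.0.16 in R 4.3.3 (filterByExpr, quasi-likelihood F test, Benjamini-Hochberg over all tested genes, threshold 0.05). DESeq2 1.42.0 and limma 3.58.1 (voom with quality weights) served as alternatives. The edgeR fits were tried on simulated counts and the permutation test on values with known answers, and the other steps had no such test. Samples were grouped by title; the description lines of the 6-3-A6 samples name the opposite fraction. Labels that give separate tumors do not name further batches. Input and IP of a tumor share its number (correlation of deviations from group means -0.07 to 0.71), whereas equal numbers in both treatments name different tumors. Members and lists were chosen with earlier results of these data known. Named genes were the members, genes overlapping them, the called genes of the pathway lists (at most 4 highest and 4 lowest in IP against input, every one in treatment comparisons), the 3 best correlated genes per member and fraction, *Notch4*, and examples of markers.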

Additional observations from a re-analysis of the deposited data

Results flagged for a closer look

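Of 32 groups of 5 values examined (level, ratio and level relative to endothelial markers of 4 genes), 3 held a value whose gap to its neighbor exceeded 0.71 of the range of the group, a criterion that chance meets in about 1 of 20 groups. *Tie1* in the 6-3-A6 IP 2 library was at 4.86 log2 CPM, beside 7.18 to 7.79 in the other 6-3-A6 IP libraries. The log2 IP over input ratio of *Ptprb* in 6-3-A6 tumor 2 was 1.55, beside 3.33 to 3.66 in the other 6-3-A6 tumors. This IP library had the lowest endothelial marker mean of the 10 IP libraries, 5.69 log2 CPM, and the study left it out. *Tek* lay -1.61 from the endothelial marker mean in control IgG IP 3, beside -0.96 to -0.82 in the other control IgG IP libraries.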

How the results depend on the processing

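In IP against input, 3 members were called under every alternative run, and the 5751 called genes fell to 3381 with the tumors of the kept IP libraries only. The tumor as replicate block gave 7573 genes and log2 fold changes of 3.87 for *Tek*, 4.45 for *Tie1*, 3.20 for *Ptprb* and -0.42 for *Angpt1*, and changed no member's call in any comparison. With the replicate number as a block, 0 genes were called over all IP libraries and in input. No block could be fitted for the kept libraries, whose groups share only number 4.

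Over the kept libraries, the 646 called genes became 1194 with DESeq2, 1879 with limma voom, 1459 without a filter and 1 with the endothelial marker mean as covariate; leaving out 1 library gave 9 to 653 (9 without 6-3-A6 3, 161 without 6-3-A6 4, 188 without control IgG 4 and 345 without 6-3-A6 1). Members called were 0 to 1 on leaving out 1 library, and 1 without a filter, where *Angpt1* was -0.79 (edgeR adjusted p = 0.0423; 0.0804 to 0.956 under the other full-library alternatives). The covariate turned *Tek* to -0.64, *Tie1* to -0.77 and *Ptprb* to -0.44, but it did not overlap between the kept groups and so could hardly be separated from treatment. With voom, *Tek* and *Tie1* over the kept libraries were 0.11 and 0.24, *Ptprb* over all IP libraries was 0.14 and *Angpt1* -0.63, and in input *Tek* was -0.12 and *Angpt1* -0.026; the causes were not tested.

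Leaving out 1 library moved uncalled differences across 0, over all IP libraries from -0.31 to 0.18 for *Tek*, -0.39 to 0.19 for *Tie1* and -0.36 to 0.17 for *Ptprb*, in input from -0.11 to 0.49 for *Tek* and -0.066 to 0.16 for *Ptprb*, and in the interaction from -0.61 to 0.0087 for *Tek*, -0.019 to 0.57 for *Tie1* and -0.42 to 0.12 for *Ptprb*. The tumor ratios ranged from -0.57 to 0.11 for *Tek*, -0.12 to 0.92 for *Tie1* and -0.47 to 0.24 for *Ptprb*, and with kept tumors the differences were 0.57 for *Tek*, 1.79 for *Tie1*, 0.63 for *Ptprb* and -1.19 for *Angpt1*. Depth limits *Tie1* and *Tek* in input, at 20 to 166 and 37 to 103 counts per library.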
